A study of Mus musculus with 2 samples.

Results

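The genes of the mitochondrial ribosomal proteins were followed in the RNA of the mouse heart. They were taken by symbol, as Mrpl or Mrps and a number without the pseudogene suffix, and each had to have a transcript annotated protein_coding. The rule found 78 genes among 55450 annotated mouse genes, 49 of them named for the large subunit and 29 for the small one. Hearts came from 2 adult female B6CASTF1/J mice of 8 to 10 months, a first-generation hybrid between the strains C57BL/6J and CAST/EiJ, supplied by the Jackson Laboratory. Both animals carried the same genotype, no treatment is named in the labels, and they form 1 group, so no groups were compared. Replicate 1 is the animal numbered 1 and replicate 2 the animal numbered 3. Values are in TPM, transcript abundance per length scaled to the same total in every library, from the gene table unless another table is named, and are means ± SD over the animals (n = 2). With 2 animals the smallest two-sided p of an exact sign-flip test is 0.5, and none was computed.

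Mitochondria have their own ribosome, which translates the few messenger RNAs of the mitochondrial genome into core subunits of the respiratory chain. Its ribosomal RNAs are made inside the organelle, while its proteins are encoded in the nucleus, made in the cytosol and imported. Some belong to families shared with the bacterial ribosome and others occur in mitochondrial ribosomes only. The heart is rich in mitochondria, and inherited defects of several of these proteins cause cardiomyopathy in people.

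The gene tables held 42223411 and 40553237 expected counts. A member had 165.14 to 3734 counts in replicate 1 and 20.16 to 3366.98 in replicate 2, with medians of 1004 and 910 counts. The cardiomyocyte markers, 6 genes among them Myh6 and Tnnt2, had a median of 3606 ± 167 TPM. Of 5 lymphocyte markers 0 reached 1 TPM in both animals, and of 5 adipocyte markers 1 did. Fewer cells of a type and less RNA per cell cannot be told apart in such tissue RNA. The mitochondrial ribosomal RNAs mt-Rnr1 and mt-Rnr2 stood at 80636 and 125392 TPM in replicate 1 and at 103869 and 143120 TPM in replicate 2. These libraries were depleted of ribosomal RNA, so those values do not give the amount of ribosome.

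Nearly every mitochondrial ribosomal protein gene was on in both hearts, at moderate and closely matched levels. A level of 1 TPM in both animals was reached by 77 of the 78 genes, beside 48.9% of all 21901 genes with a protein_coding transcript. The same 77 stood at 5 TPM or more, beside 30.5% of those genes. At 10 TPM or more stood 74, a level for which the share over all genes was not computed. The exception was Mrpl23, described separately with its pseudogene. Over the 78 genes the median stood at 30.5 TPM in the first heart and 28.6 in the other (29.5 ± 1.34 TPM), and the median of all expressed protein-coding genes was 7.96 ± 0.74 TPM. In replicate 1 82.9% of expressed protein-coding genes lay below the members' median, and in replicate 2 84.2% did. The members' TPM summed to 3170 in replicate 1 and 2837 in replicate 2, which made 0.838% and 0.853% of all TPM of nuclear protein-coding genes.

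**Figure D1:**
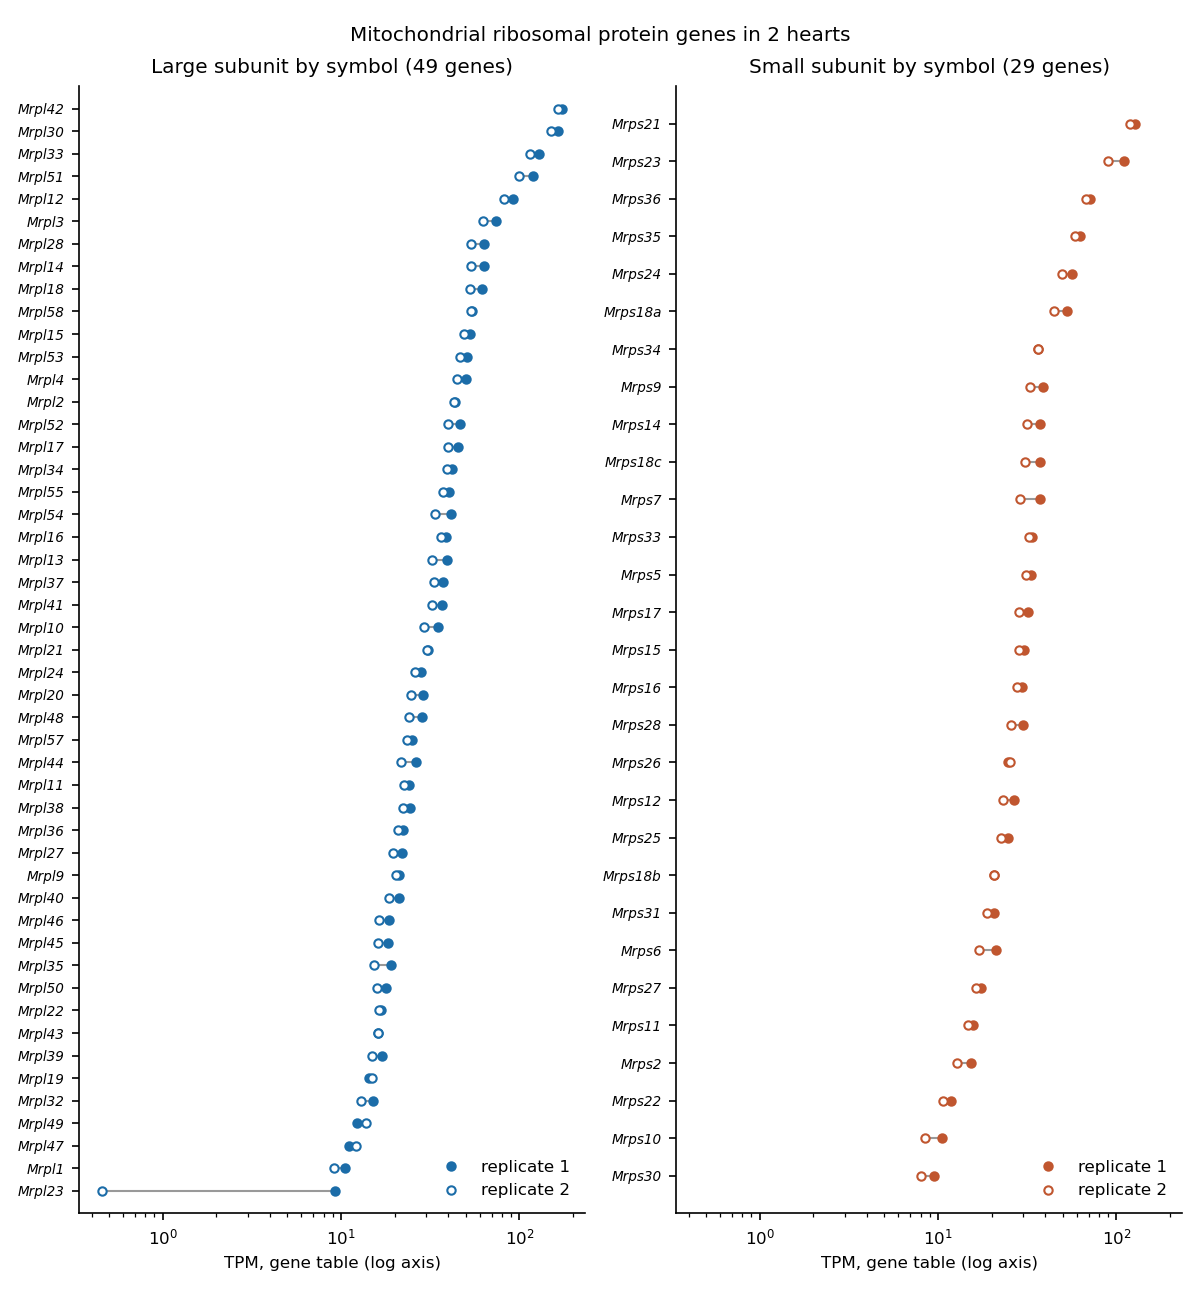
TPM of each member on a log axis, large subunit at left and small subunit at right by symbol, sorted by mean. Filled points are replicate 1, open points replicate 2, and a grey line joins both animals. Most points of a gene lie close together, and Mrpl23 at the foot of the left panel runs from 9.22 to 0.46 TPM.

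At the top of the order stood Mrpl42, a protein of the large subunit found in mitochondrial ribosomes only (chr10:95480805-95501940, minus strand, mm10), at 174 TPM in replicate 1 and 165 in replicate 2. Mrpl30, a large-subunit protein of a family shared with bacteria, followed at 166 and 150 TPM. Mrps21, of the small subunit and of a bacterial family, stood at 127 and 119 TPM, and Mrpl33, a short large-subunit protein, at 130 and 114 TPM. In both hearts, 100 TPM was reached by these 4 members, and the share over all genes was not computed. Mrpl51, a mitochondria-specific large-subunit protein, stood at 119 and 99.4 TPM, and Mrps23, a mitochondria-specific small-subunit protein, at 111 and 90.3 TPM. Mrpl12, which forms the stalk where elongation factors bind, stood at 91.7 and 81.8 TPM. All of these were higher in replicate 1, which was so for 73 of the 78 genes before the shift between the libraries was removed. The share over all genes before that removal was not computed, and the median gene also read lower in replicate 2.

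The foot of the order, Mrpl23 aside, lay well below the median in both hearts. Mrps30 was lowest at 9.52 TPM in replicate 1 and 8.07 in replicate 2. Its protein sits in the large subunit of the mammalian ribosome although the symbol names the small one. Mrps10, a small-subunit protein of a bacterial family, stood at 10.5 and 8.46 TPM, and Mrpl1, which forms the other stalk of the large subunit, at 10.6 and 9.16 TPM. Mrps22, a mitochondria-specific small-subunit protein, stood at 11.9 and 10.6 TPM. Mrpl47 and Mrpl49, both of the large subunit, stood at 11.1 and 12.1 TPM and at 12.4 and 13.8 TPM, with replicate 2 higher. Mrpl32, a large-subunit protein that is cut by a protease after import, stood at 15.1 and 13.0 TPM.

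Several symbols do not say what the protein does, and their levels were spread over the whole order. Mrps36 (chr13:100735955-100744659, minus strand), which is a subunit of the alpha-ketoglutarate dehydrogenase complex and not of the ribosome, stood at 71.1 TPM in replicate 1 and 67.7 in replicate 2. It ranks among the 8 highest members and is kept here because the rule goes by symbol. Mrpl58, a peptidyl-tRNA hydrolase that is built into the large subunit and frees stalled chains, stood at 54.3 and 53.3 TPM. Mrps24 and Mrps28, whose symbols do not carry the number of their bacterial families, stood at 53.1 ± 4.53 and 27.9 ± 3.03 TPM, and Mrpl55, for which the same holds, at 38.7 ± 2.22 TPM. The Mrps18 paralogues descend from a single bacterial family, and the ribosome holds all of them at different places. Mrps18a, which lies in the large subunit, stood at 52.8 and 44.9 TPM, Mrps18c at 37.6 and 30.6 TPM, and Mrps18b at 20.7 and 20.5 TPM. That order held in each animal, and the ranges of the paralogues over the animals did not overlap.

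Grouped by symbol, the subunits lay at the same level to within the detail these tables give. Mrps30, Mrps18a and Mrps36 thus count with the small subunit here, although their proteins are not part of it. Genes of the large subunit had a median of 30.7 TPM in the first heart and 29.2 in the other, and those of the small subunit 30.3 and 28.6 TPM. The difference of medians, large less small, was 0.02 and 0.03 on the log2(TPM + 1) scale (0.023 ± 0.011), and it was -0.04 in the FASTQ-derived table, so it carries no stable direction. The 48 genes of families shared with bacteria had a median of 30.8 ± 2.47 TPM and the 29 mitochondria-specific ones 24.3 ± 1.07 TPM. That difference was 0.37 in replicate 1 and 0.30 in replicate 2 on the log2(TPM + 1) scale (0.33 ± 0.05, 1.26-fold), of the same sign in both animals. Genes of both kinds stood at the top and at the foot of the order, so the classes overlapped over nearly their whole range.

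The members' median lay below those of cytosolic ribosomal proteins and of the nuclear genes of complex I, although the ranges of the genes overlapped. The 83 genes of cytosolic ribosomal proteins had a median of 179 ± 11.8 TPM, with 81 expressed. The difference of medians, members less cytosolic, was -2.58 and -2.54 on the log2(TPM + 1) scale (-2.56 ± 0.03, 5.90-fold lower). The highest cytosolic genes were Rplp1 at 593 ± 48.2 TPM, Rpl41 at 529 ± 40.7 TPM and Rps29 at 525 ± 9.31 TPM, and the lowest were Rpl39l at 0.13 and 0 TPM and Rpl10l at 0 in both animals. The 36 nuclear genes of complex I, the first enzyme of the respiratory chain, were all expressed with a median of 289 ± 12.9 TPM. The members lay -3.25 below on the log2(TPM + 1) scale in both animals, a 9.50-fold lower median. Of complex I, Ndufa3, Ndufb8 and Ndufa5 were highest, at 789 ± 68.5, 748 ± 55.9 and 600 ± 37.9 TPM. Ndufb4 and Ndufb3 were lowest, at 62.1 ± 1.86 and 96.9 ± 0.13 TPM. In the FASTQ-derived table Ndufb4 stood at 253 and 241 TPM, so its place as the lowest depended on the table. Every TPM sets a level per length and per library, and none of these values measures protein.

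The members' quartiles of mean TPM were 19.3 and 43.3, a ratio of 2.25, beside 2.40 for cytosolic ribosomal proteins and 1.86 for complex I. The SD over members of log2(TPM + 1) was 0.94 in replicate 1 and 1.03 in replicate 2. For cytosolic ribosomal proteins it was 1.64 and 1.60, a list that holds the nearly silent Rpl10l and Rpl39l, and for complex I 0.82 and 0.79. The mean TPM of the highest member, Mrpl42, was 35.0-fold that of the lowest, Mrpl23, and the SD was 0.91 with Mrpl23 left out.

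**Figure D2:**
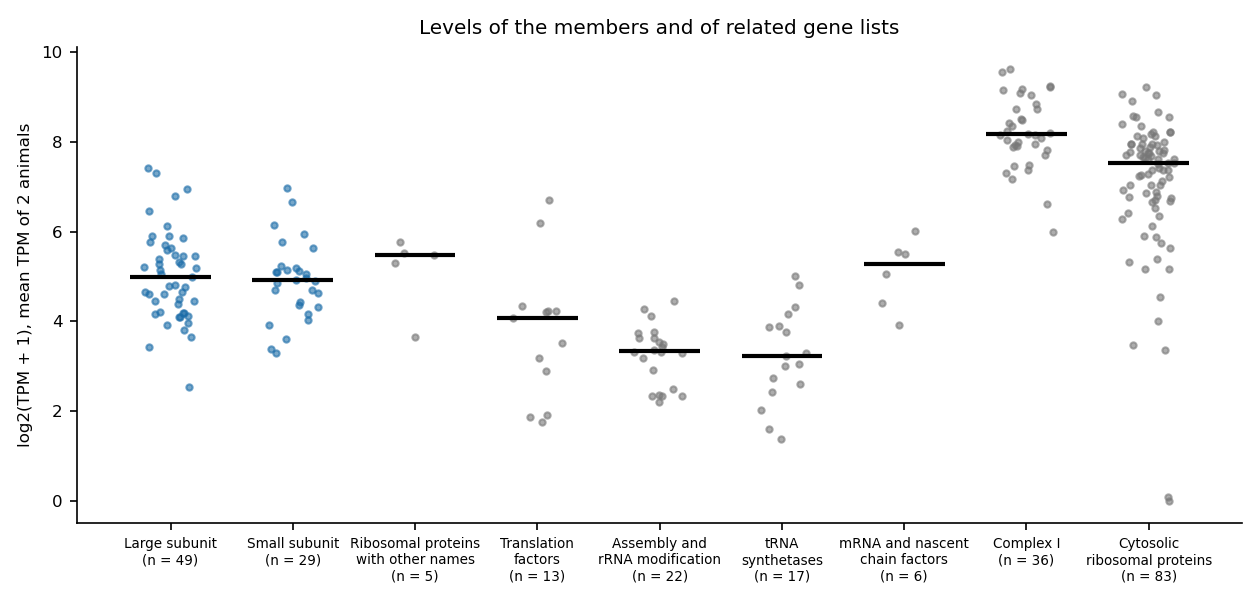
Levels as log2(TPM + 1) of the mean TPM over both animals, with a point per gene, a line at the list's median and the number of genes below each name. The medians of both subunits, grouped by symbol, lie at the same height. They lie below those of complex I and cytosolic ribosomal proteins and above those of tRNA synthetases and assembly factors.

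Other parts of mitochondrial translation were expressed throughout, at levels that differed by function. All 63 genes of 5 lists reached 1 TPM in both animals, and none was 2-fold apart between the animals. Ribosomal proteins with other names had a median of 43.6 ± 4.97 TPM over 5 genes. Dap3, a GTP-binding small-subunit protein, was highest at 53.9 ± 1.27 TPM, followed by Aurkaip1 at 45.0 ± 2.96 and Ptcd3 at 43.9 ± 5.41 TPM, and Chchd1 and Gadd45gip1 were lowest at 38.1 ± 4.29 and 11.5 ± 0.86 TPM. The 13 translation factors had a median of 15.9 ± 0.39 TPM, and the elongation factor genes Tufm, Gfm1 and Tsfm led them at 103 ± 18.9, 71.8 ± 4.67 and 19.4 ± 0.21 TPM. The lowest were Mtrf1l, a release factor, at 2.68 ± 0.66 TPM and Mtfmt, which formylates the initiator tRNA, at 2.41 ± 0.19 TPM.

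Genes that build the ribosome and charge its tRNAs had medians below that of the ribosomal proteins themselves, although the ranges of the genes overlapped. The 22 genes of ribosome assembly and rRNA modification had a median of 9.35 ± 0.29 TPM. Dhx30, an RNA helicase, was highest at 22.9 and 19.1 TPM, then Mterf3 at 18.3 ± 3.02 and Rbfa at 16.3 ± 1.67 TPM. Tfb1m, which methylates the small ribosomal RNA, and Gtpbp10 were lowest at 4.03 ± 0.22 and 3.59 ± 0.25 TPM. The 17 mitochondrial tRNA synthetases had a median of 8.28 ± 1.02 TPM, from Fars2, Iars2 and Cars2 at 31.3 ± 0.12, 27.0 ± 2.31 and 19.0 ± 2.14 TPM down to Pars2 and Mars2 at 2.03 ± 0.071 and 1.61 ± 0.12 TPM. The 6 genes of messenger RNA handling and membrane insertion had a median of 37.8 ± 4.85 TPM. Slirp and Lrpprc, which together protect mitochondrial messenger RNAs, stood at 63.9 ± 7.65 and 45.7 ± 2.33 TPM, and Letm1 at 44.5 ± 7.33 TPM. Taco1, an activator of translation, and Metap1d, which removes the first methionine, were lowest at 20.3 ± 1.05 and 14.0 ± 1.59 TPM.

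The animals were compared as the log2 ratio of replicate 2 to replicate 1, with 0.1 TPM added, less the median of all 11871 genes compared. That median was -0.18, and 22 ERCC spike-ins gave -0.21, so the median gene read lower in replicate 2 before it was removed. After removal the members' median ratio was 0.02, with 46 genes higher and 32 lower in replicate 2, beside 50% of all genes compared that were lower. Within 1.2-fold lay 75 of the 78 members, beside 73.6% of all genes compared. Just 1 member, Mrpl23, was past 2-fold, lower in replicate 2 with a centred ratio of -3.87, beside 0.708% of all genes compared in that direction and 1.42% in both. No member was 2-fold higher in replicate 2, beside 0.708% in that direction.

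Among the other 77 members the centred ratio ran from -0.18 to 0.34. The highest were Mrpl49 (0.34) and Mrpl47 (0.31), both in the large subunit, Mrpl19 (0.23), Mrps26 (0.22) and Mrpl43 (0.19). Mrpl19 stood at 14.4 and 14.9 TPM, Mrps26 at 24.6 and 25.2 TPM, and Mrpl43 at 16.2 TPM in both animals, so their plain TPM was nearly equal in both hearts while most members read lower in replicate 2. Expected counts rose from replicate 1 to replicate 2 in Mrpl49 (693 to 729) and Mrps26 (857 to 913). They fell in Mrpl47 (615 to 605), Mrpl19 (749 to 673) and Mrpl43 (688 to 672). In the alignment-derived table the share of the transcript with the highest TPM rose from 56.3% to 62.1% in Mrpl47 and from 46.5% to 50.6% in Mrpl19. It fell from 100% to 88.9% in Mrpl49, from 97.6% to 96.5% in Mrps26 and from 96.4% to 91.6% in Mrpl43. The part of these shifts in the ratios was not tested. The lowest after Mrpl23 were Mrps7 (-0.18), a core protein of the small subunit at 37.3 and 29.0 TPM, Mrpl35 (-0.14) at 19.1 and 15.2 TPM, Mrps10 (-0.13) and Mrps6 (-0.12) at 21.2 and 17.1 TPM. In the FASTQ-derived table the ratios of Mrpl49, Mrpl47, Mrpl19, Mrps26 and Mrpl43 were 0.27, 0.42, 0.29, 0.20 and 0.19, and those of Mrps7, Mrpl35, Mrps10 and Mrps6 were -0.08, -0.23, -0.04 and -0.13. Both tables describe the same libraries, so like signs are no second measurement of the animals.

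The deposited credibility intervals of the animals, taken without centring, did not overlap for 22 of the 78 members, all lower in replicate 2. Of all genes compared, 28% had such intervals and 26.6% were lower in replicate 2, so the members' share is near the background. The CV over the animals had a median of 8.11% over members. Across members, Spearman's rho between the animals was 0.993 (78 genes of the same 2 libraries, not independent replicates), so the order of the levels was nearly the same in both hearts. Of the red cell markers 5 of 5 were lower in replicate 2 with a median ratio of -0.43, and their TPM summed to 3478 in replicate 1 and 2255 in replicate 2. Of the fibroblast markers 5 of 5 were lower, with a median of -0.18 and sums of 171 and 144 TPM. Of the epicardial markers 4 of 5 were higher, with a median of 0.66 and sums of 12.9 and 16.8 TPM. Of the endothelial markers 4 of 5 were lower, with a median of -0.11 and sums of 149 and 114 TPM. Mural markers were higher in 3 of 5, with a median of 0.02 and sums of 143 and 117 TPM. Macrophage markers were higher in 3 of 5, with a median of 0.06 and sums of 50.8 and 41.9 TPM. Cardiomyocyte markers were higher in 3 and lower in 3, with a median of 0.0007. The sums are without centring. The part of these cell types in the small differences of the members was not tested.

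**Figure D3:**
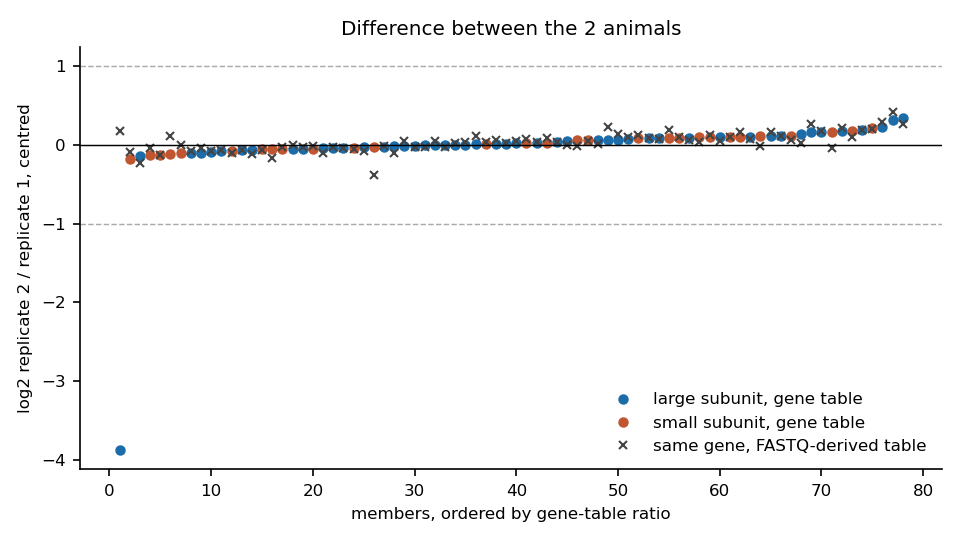
Centred log2 ratio of replicate 2 to replicate 1 for the 78 members, ordered by the gene-table ratio, with circles for the gene table and crosses for the same gene in the FASTQ-derived table. Dashed lines mark 2-fold. Every circle but that of Mrpl23, at -3.87, lies between -0.18 and 0.34, and the cross of Mrpl23 lies at 0.17.

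Mrpl23 encodes a large-subunit protein that sits at the exit of the peptide tunnel, and its value depended on how reads were shared with a copy. The gene lies at chr7:142532686-142540747 on the plus strand. Mrpl23-ps1, a processed pseudogene, lies at chr2:74591330-74591909 on the minus strand. The transcript Mrpl23-201, of 692 bases, and the pseudogene's 580 bases were compared by script. They aligned over 540 bases, from base 151 to base 690 of Mrpl23-201 counted from its 5′ end, with 0 mismatches and 0 gaps. That stretch holds the whole coding sequence of 438 bases, of which the first 300 bases are shown because every base is the same in gene and pseudogene. They are read from the GENCODE M21 transcripts, 5′ to 3′, and the capitals mark the start codon.
Mrpl23 coding sequence, first 300 bases: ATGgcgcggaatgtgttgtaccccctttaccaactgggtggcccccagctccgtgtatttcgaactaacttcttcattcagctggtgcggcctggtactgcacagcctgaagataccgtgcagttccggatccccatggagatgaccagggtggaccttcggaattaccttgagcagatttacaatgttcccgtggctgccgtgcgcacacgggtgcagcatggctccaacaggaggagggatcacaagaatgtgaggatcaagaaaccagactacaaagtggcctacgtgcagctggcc
A read that lies inside this sequence matches either record of the reference equally well. Differences of the CAST/EiJ genome within it were not analysed here. Of the 31-base words of Mrpl23-201, 77.0% occur in the pseudogene, and of its 100-base words 74.4% do. Of the pseudogene's 31-base words 94.6% occur in transcripts of Mrpl23.

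In the gene tables the pseudogene took most of the reads of the pair. Mrpl23 stood at 9.22 TPM in replicate 1 and 0.46 in replicate 2, from 165.14 and 20.16 counts. Mrpl23-ps1 stood at 41.6 and 46.0 TPM, from 671.86 and 748.84 counts. The gene thus had 19.7% of the pair's counts in replicate 1 and 2.62% in replicate 2. In the FASTQ-derived table Mrpl23 stood at 53.8 and 54.5 TPM and the pseudogene was listed at 0 in both animals. The sum of the pair was 50.8 and 46.5 TPM in the gene tables, beside 53.8 and 54.5 TPM in the FASTQ-derived ones. With the pair taken as 1 gene, an alternative chosen after seeing the data, the centred ratio between the animals was 0.05, and no member was 2-fold apart between animals or tables. Those sums lie near the values of Mrpl53, at 51.2 and 46.5 TPM, and not at the foot of the order.

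The deposited posterior means of Mrpl23 were 10.3 and 5.27 TPM. Its plain value of 0.46 TPM in replicate 2 lay outside its own credibility interval of 1.21 to 10.1 TPM. It was the 1 member with a plain TPM outside its interval in either animal, beside 5.53% of expressed protein-coding genes. Within the gene, the alignment-derived table put 8.90 TPM on Mrpl23-207 in replicate 1 and 0 in replicate 2, and 0 on Mrpl23-201 in both. The FASTQ-derived table put 19.1 and 15.3 TPM on Mrpl23-201, 31.7 and 23.9 TPM on Mrpl23-202, a transcript annotated as not coding, and 2.62 and 14.9 TPM on Mrpl23-207. The split among its transcripts was therefore unstable as well.

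**Figure D4:**
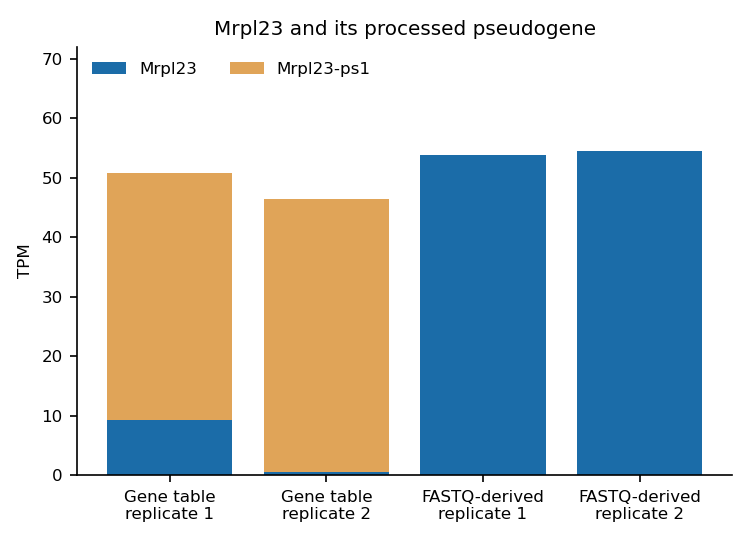
TPM of Mrpl23 (blue) stacked with Mrpl23-ps1 (orange) in each animal, from the gene tables at left and the FASTQ-derived tables at right. The stacks reach 50.8 and 46.5 TPM in the gene tables and 53.8 and 54.5 TPM in the others, while the blue share runs from 0.46 to 54.5 TPM.

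The other 4 pseudogenes named after members took few reads. Mrpl48-ps stood at 6.55 and 5.19 TPM in the gene tables and at 0.49 and 0.51 TPM in the FASTQ-derived ones, beside 26.3 ± 2.89 TPM for Mrpl48 itself. The gene had 90.5% and 91.2% of the counts of that pair. Mrps36-ps1, Mrps36-ps2 and Mrps36-ps3 were each at 0.18 TPM or lower. The 31-base words of each member were taken from its transcripts annotated protein_coding only. The share over all genes was not computed for the counts that follow. Of all members, 31 share no such word with another gene, 20 share over 10% of their words and 2 share over 50%, the median being 1.51%. Those 2 are Mrpl23, at 53.0% over its protein_coding transcripts, and Mrpl53, a mitochondria-specific large-subunit protein whose words all occur in the record Gm42688. Gm42688 stood at 0.42 and 0.57 TPM, and in the FASTQ-derived table at 2.47 and 2.75 TPM, where Mrpl53 stood at 48.8 and 43.8 TPM.

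Beyond Mrpl23, both ways of counting gave the members like levels. The table ratio is the log2 of FASTQ-derived over alignment-derived TPM, with 0.1 added to each. Its median over members was 0.06 in replicate 1 and 0.10 in replicate 2, beside -0.00 and 0.03 over all 12074 genes compared. Higher in the FASTQ-derived table in both animals were 49 of the 78 members, beside 42.5% of all genes compared. Lower in both were 20, without a share over all genes to set beside it. Past 2-fold in both animals was 1 member, Mrpl23, beside 0.828% of all genes in that direction and 3.3% in both. No member was 2-fold lower, beside 2.48%. Past 1.5-fold in both animals was 1 member higher, Mrpl23 again, beside 2.2%, and 0 lower, beside 3.23%. The ratio of the mean TPM was 1.61 for Mrps12, a protein of the decoding centre with 47.4 and 32.7 TPM in the FASTQ-derived table beside 26.7 and 23.0 TPM in the gene table. It was 1.55 for Mrps7 and 1.36 for Mrpl22, and Mrps33 stood at 51.1 and 48.0 TPM there beside 33.8 and 32.3 TPM in the gene table. It was, at the other end, 0.76 for Mrps23 and 0.78 for Mrpl17. These genes were named after their values were seen. Spearman's rho across the 78 members between the tables was 0.925 in each animal.

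Most members had the same leading transcript in both tables and both animals, and for some that transcript is not annotated as coding. Of 74 members with several transcripts that could be compared, 58 had 1 shared main isoform, beside 70.2% of all expressed protein-coding genes so compared. In the alignment-derived table the coding transcript Mrpl42-203 held 96.1% of the TPM of Mrpl42 in replicate 1 and 98.7% in replicate 2. Mrpl12-201 held 99.0% and 99.6% of the TPM of Mrpl12 there. In the FASTQ-derived table the shares were lower, 66.2% and 58.3% for Mrpl42-203 and 77.7% and 72.3% for Mrpl12-201. In Mrpl30 the leading transcript of the alignment-derived table held 58.7% and 51.7% and was not shared by all tables and animals. Transcripts annotated protein_coding held 96.9% ± 0.11 of a member's TPM in the median, beside 95.1% ± 0.31 over all expressed protein-coding genes, 99.1% ± 0.086 in cytosolic ribosomal proteins and 97.2% ± 0.78 in complex I. Of the members' summed TPM they held 77.2% in replicate 1 and 77.5% in replicate 2. In 50 members the coding share was over 90%, so a minority of genes accounts for the lower share of the sum. How many of all genes pass 90% was not computed.

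In 14 of the 74 members the leading transcript was not annotated protein_coding in both tables and both animals, beside 3.98% of 9777 genes so compared. Among cytosolic ribosomal proteins 9 of 77 were led in this way and in complex I 5 of 30. This count was added after the isoform values had been seen. Of the 14 genes 9 are of the large and 5 of the small subunit by symbol. Mrps26-201, annotated as a retained intron, held 97.1% ± 0.75 of its gene's TPM, and Mrps16-202, a processed transcript, held 96.8% ± 0.018. Mrps14-201, annotated for nonsense-mediated decay, held 95.1% ± 1.92, and Mrpl57-202, a retained intron, 93.4% ± 0.26. In the FASTQ-derived table the shares were 96.9% for Mrps26-201, 99.2% for Mrps16-202, 76.4% for Mrps14-201 and 95.3% for Mrpl57-202. The coding share was accordingly 2.92% ± 0.75 in Mrps26, 3.20% ± 0.018 in Mrps16, 4.92% ± 1.92 in Mrps14 and 6.57% ± 0.26 in Mrpl57, with Mrpl15 at 3.94% ± 0.27. These are the 5 lowest coding shares among expressed members.

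Most of these leading transcripts carry much of the coding sequence all the same, and each is shorter than the highest coding transcript of its gene. The leading ones are 419 to 1394 bases long and the coding ones 995 to 6073 bases. Mrps26-201 has 1057 bases, holds 95.1% of the 31-base words of the coding sequence of Mrps26-202 and stands beside that transcript's 4278 bases. Mrpl57-202 has 519 bases in 1 exon and holds 100% of the coding words of Mrpl57-201, which has 2877 bases. Mrps16-202 has 801 bases and holds 96.5% of the coding words of Mrps16-201, which has 2572. At the other end Mrpl19-203 holds 35.6% and Mrps25-201 50.5% of the coding words. Reads in the shared parts do not tell such records apart, and whether the leading transcripts are translated was not measured.

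**Figure D5:**
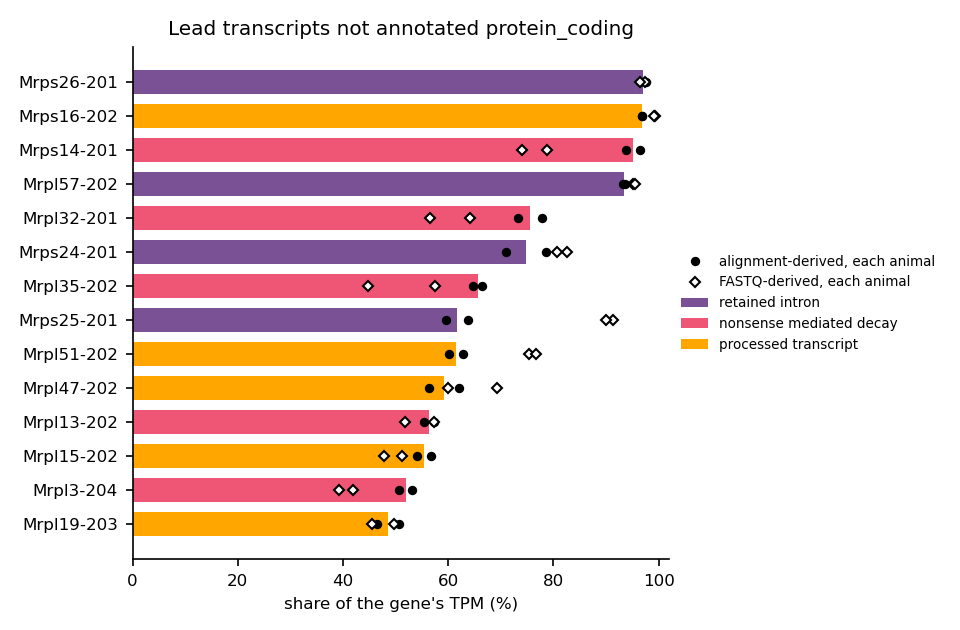
Share of the gene's TPM, in percent, on the leading transcript of the 14 members led by a transcript not annotated protein_coding. Bars are means over both animals in the alignment-derived table coloured by annotation, black points are the animals in that table, and open diamonds the animals in the FASTQ-derived table. Shares run from 97.1% for Mrps26-201 to 48.6% for Mrpl19-203.

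Promoters of these genes are known to bind nuclear respiratory factor 1 and ETS-family factors such as GABP, so their letters were searched in the 300 bases around each start. Windows for 69 members, 75 in all, came from RefSeq on GRCm38.p6, from 250 bases before to 50 after the start. Motifs were sought on both strands. The NRF1 motif, GCGCA then any base then GCGC, was in 17.3% of the members' windows, beside 4.60% of all 32851 windows, 10.3% of those of expressed protein-coding genes and 23.5% of those of complex I. CCGGAAG, the core of the ETS motif, was in 34.7%, beside 8.86% of all, 17.9% of expressed and 11.8% of complex I windows. AANATGGCG, the YY1 motif, was in 14.7%, beside 2.38% of all and 5.27% of expressed windows, 20.6% of complex I windows and 12% of those of cytosolic ribosomal proteins. The GC box GGGCGG was in 52% of the members' windows, beside 35.7% of all and 63.8% of expressed windows. Either of the first and second motifs was in 46.7% of the members' windows, beside 26.0% of expressed ones. None of the 4 motifs was held by 13 of the members' windows, and the share over all windows was not computed. Cytosolic ribosomal proteins had the NRF1 motif in 5.33% and the ETS motif in 34.7% of their windows. A match is a description of letters, and no binding was measured.

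The promoters of 3 members with a motif near the start are shown, 100 bases up to the start, to set such a match in its context. They were picked after the matches had been seen, as the highest member with each motif in that stretch. The capitals mark the motif or its reverse complement. The first is Mrpl30 at chr1:37890377-37890476 on the plus strand, with the NRF1 motif on the other strand, 83 bases before the start. The second is Mrpl51 at chr6:125192100-125192199, plus strand, with the ETS motif 90 bases before it. The third is Mrpl36 at chr13:73330909-73331008, plus strand, with the YY1 motif on the other strand 31 bases before it. Mrpl30 and Mrpl51 are among the highest members, and Mrpl36, a short large-subunit protein, stood at 21.6 ± 0.86 TPM.
Mrpl30 promoter: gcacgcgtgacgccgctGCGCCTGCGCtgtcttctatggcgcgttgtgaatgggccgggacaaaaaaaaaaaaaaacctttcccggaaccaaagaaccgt
Mrpl51 promoter: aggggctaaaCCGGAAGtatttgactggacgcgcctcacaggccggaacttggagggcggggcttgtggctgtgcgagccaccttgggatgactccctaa
Mrpl36 promoter: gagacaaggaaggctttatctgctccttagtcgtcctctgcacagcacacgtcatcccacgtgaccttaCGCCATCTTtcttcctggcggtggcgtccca

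A large-subunit and a small-subunit gene share a promoter region. Mrpl46 (chr7:78775236-78783531, minus strand) and Mrps11 (chr7:78783119-78792989, plus strand) run away from each other, their GENCODE records overlap by 413 bases, and their RefSeq starts have 41 bases between them. Mrpl46 stood at 17.6 ± 1.59 TPM and Mrps11 at 15.2 ± 0.69 TPM, a small difference on the scale of the whole order. Without use of strand, reads in the overlap could not be told apart, and the sources used here do not say whether the counting used strand. The stretch between the starts, chr7:78783090-78783130 on the plus strand, is shown because it lies between both, and its capitals mark a GC box.
Mrpl46 and Mrps11 starts: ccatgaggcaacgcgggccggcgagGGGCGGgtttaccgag
The members lie on 17 chromosomes in all, and this was the pair of members whose records overlapped.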

How the data were processed

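Total RNA from the hearts of 2 animals was sequenced. Per the labels' protocols, 300 ng of RNA went into a directional kit with ribosomal RNA depletion and ERCC spike-ins. The labels give both libraries the same donor identifier, which was taken as the strain's, so the animal numbers are the ground for n = 2. For each library the authors deposited 3 tables. Per the deposited description files, a gene and a transcript table came from transcriptome alignments and another transcript table from a FASTQ file, all on mm10 with GENCODE M21. Which aligner and quantifiers made them is not given in the sources. Per the file headers the tables hold estimated counts (expected_count, est_counts) and TPM. The authors also deposited posterior mean TPM and credibility bounds, a signal in TPM whose level is not stated. Reads were assigned to the C57BL/6J reference, although the animals also carry a CAST/EiJ genome.

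Levels used log2(TPM + 1) and ratios log2(TPM + 0.1), centred on the median over all genes that had 1 TPM on average and 20 counts in total. These ratios understate differences of low genes. Expressed means 1 TPM in both animals. The main isoform is the transcript of highest TPM. Members, lists and thresholds were chosen with earlier results of these data known, the large difference of Mrpl23 between tables included. The cytosolic list was meant as Rpl, Rps or Rplp and a number, which 95 symbols match. After they were seen, 12 named after a ribosomal protein, such as kinases, were left out and 83 kept. Named members are the 8 highest and 8 lowest, those 2-fold apart, the 5 with the largest ratio each way, the 5 lowest coding shares, the Mrps18 paralogues and those with misleading names. Of each list of the pathway the 3 highest and 2 lowest are named. The Mrpl23 alignment, shared words, transcripts that are not coding, promoters shown and the genes named for table ratios between 0.76 and 1.61 were chosen after values were seen. Scripts used python 3.11.15 with pandas 2.3.3 and numpy 2.4.6. The ratios were tested on simulated data. Credibility bounds do not cover variation between animals, and without molecular identifiers PCR copies count as separate reads. Protein sequences of the Mrps18 paralogues were not analysed here.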

Additional observations from a re-analysis of the deposited data

How the results depend on the processing

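Of 83 alternatives to 12 results, 62 were labelled as kept, 20 as moved and 1 as turned in direction. Kept meant a value within the spread between the animals or a count within 1.5 times. The ratio between the animals has no such spread, and its limit was 0.45 instead. Within that limit, -0.17 without centring and -0.0016 with 1 TPM added counted as kept, though both have the opposite sign to the main value of 0.018. Large less small subunit was -0.040 in the FASTQ-derived table and 0.081 with members at 1 TPM only. The median level was 32.3 TPM in the FASTQ-derived table and 83.3 TPM when rescaled to nuclear protein-coding genes. Members less cytosolic ribosomal proteins was -2.65 in the FASTQ-derived table, -2.60 with 0.1 added, -2.59 with genes at 1 TPM only and -2.35 with the kinases and other genes of such symbols kept. Members less complex I was -3.28 rescaled, -3.22 in the FASTQ-derived table, -3.23 by posterior means, -3.29 with 0.1 added and -3.24 with genes at 1 TPM only. The SD over members was 0.91 without Mrpl23. The count 2-fold apart between animals was 0 in the FASTQ-derived table, by posterior means and with Mrpl23 and Mrpl23-ps1 summed, and that between tables was 0 with the pair summed. With protein_coding transcripts only, 25 of 39 members shared a main isoform, a setting for which the share over all genes was not computed. The median coding share was 97.3% in the FASTQ-derived table and 98.0% of expected counts. The causes were not tested, except that the kept symbols, genes and summed pair are changes of the lists themselves. Leaving out either animal moved no value beyond those limits. For a result that averages the animals this was fixed in advance, because either of 2 values lies within their SD of the mean. It is no check of stability for those results, which count among the alternatives that were kept. The ratio between the animals and the count 2-fold apart between them need both animals and were not computed with an animal left out. The summed pair and the wider cytosolic list were chosen after seeing the data. No paired analysis was possible because the libraries form 1 group. With 1 library per animal, differences between animals have no replicate check.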
